A study of Mus musculus with 8 samples.

Results

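The LIM-only proteins of the FHL, CSRP and CRIP families consist mostly or entirely of LIM domains, and 7 of their genes, Fhl1, Fhl2, Fhl3, Csrp1, Csrp2, Crip1 and Crip2, were followed among 19938 measured genes. They were taken by name as members of these families, but with earlier results of these data known. Each had 1 probe set with a single gene symbol, so none needed a choice between probe sets. The cells were primary smooth muscle cells from the aorta of the mouse strain C57Bl6, used at passage 3 or 4. The jasplakinolide group has 4 arrays of cells kept for 24 h in DMEM with 10% FCS and 100 nM jasplakinolide, a membrane-permeable sponge compound that stabilises actin filaments and favours their assembly. The control group has 4 arrays of cells in the same medium without it. The comparison asks how transcript levels respond when the actin cytoskeleton is shifted towards filaments. The labels do not say whether the arrays came from separate cultures or animals, so p-values measure the spread between these arrays, which may be technical.

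A LIM domain is a small zinc-binding fold that serves as a docking surface for other proteins. LIM-only proteins have no catalytic part and act as adaptors, both on actin filaments and adhesions and, for several of them, in the nucleus beside transcription factors. In smooth muscle the best-known factor of this kind is serum response factor (SRF), whose cofactors of the myocardin family include the MRTF proteins. MRTF proteins are held back by monomeric actin and are released when actin is assembled into filaments. CSRP proteins are known to bring SRF and GATA factors together on smooth muscle genes, and FHL2 is known both as a product of an SRF target gene and as a partner of SRF.

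Levels are log2 RMA values. The median probe set measured 7.31 to 7.39 on jasplakinolide arrays and 7.30 to 7.38 on control arrays. On the first principal component over the genes (43.3% of the variance), jasplakinolide 4 (19.4) and control 2 (12.1) lay at the high end, control 1 (-13.4) and control 3 (-14.3) at the low end, and the other 4 arrays between -4.64 and 4.71. Over all genes 154 passed the test (limma, Benjamini-Hochberg adjusted p under 0.05), 87 higher and 67 lower with jasplakinolide, and 377 passed with the replicate number as a block, 162 higher and 215 lower. The split was 69 higher and 34 lower after centring each array on its median, and 137 higher and 162 lower after cyclic loess.

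Of the 7 LIM-only genes, 2 rose with jasplakinolide, Fhl3 by 1.26-fold and Fhl1 by 1.24-fold, none fell and 5 did not pass (limma with Benjamini-Hochberg adjustment over all genes). With any 1 array left out, 0 or 1 of the 7 passed (limma; 4 to 5 at an unadjusted p under 0.05), as given for each gene. Among all genes 0.436% rose and 0.336% fell by the same rule over all 8 arrays. With 1 array left out, 43 to 150 of all genes passed, and 1445 to 2581 had an unadjusted p under 0.05 (limma). The mean was higher with jasplakinolide for 5 of the 7, as it was for 56.4% of all genes. On 4 genes, Fhl1, Fhl2, Fhl3 and Csrp1, every jasplakinolide array lay above every control array, and on Crip1 every one lay below. Among all genes 3.62% had such a separation upwards and 3.29% downwards. Without adjustment, 4 of the 7 had a p under 0.05 in the higher and 1 in the lower direction. Of all 19938 genes, 830 had such a p in the higher and 939 in the lower direction (limma). The median log2 difference of the 7 genes was 0.20, against 0.01 over all genes. With the replicate number as a block the same number, 2, rose, where 0.813% of all genes did, and none fell, where 1.08% did. RNA was measured in bulk, so more cells that express a gene and more RNA per cell cannot be told apart.

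**Figure D1:**
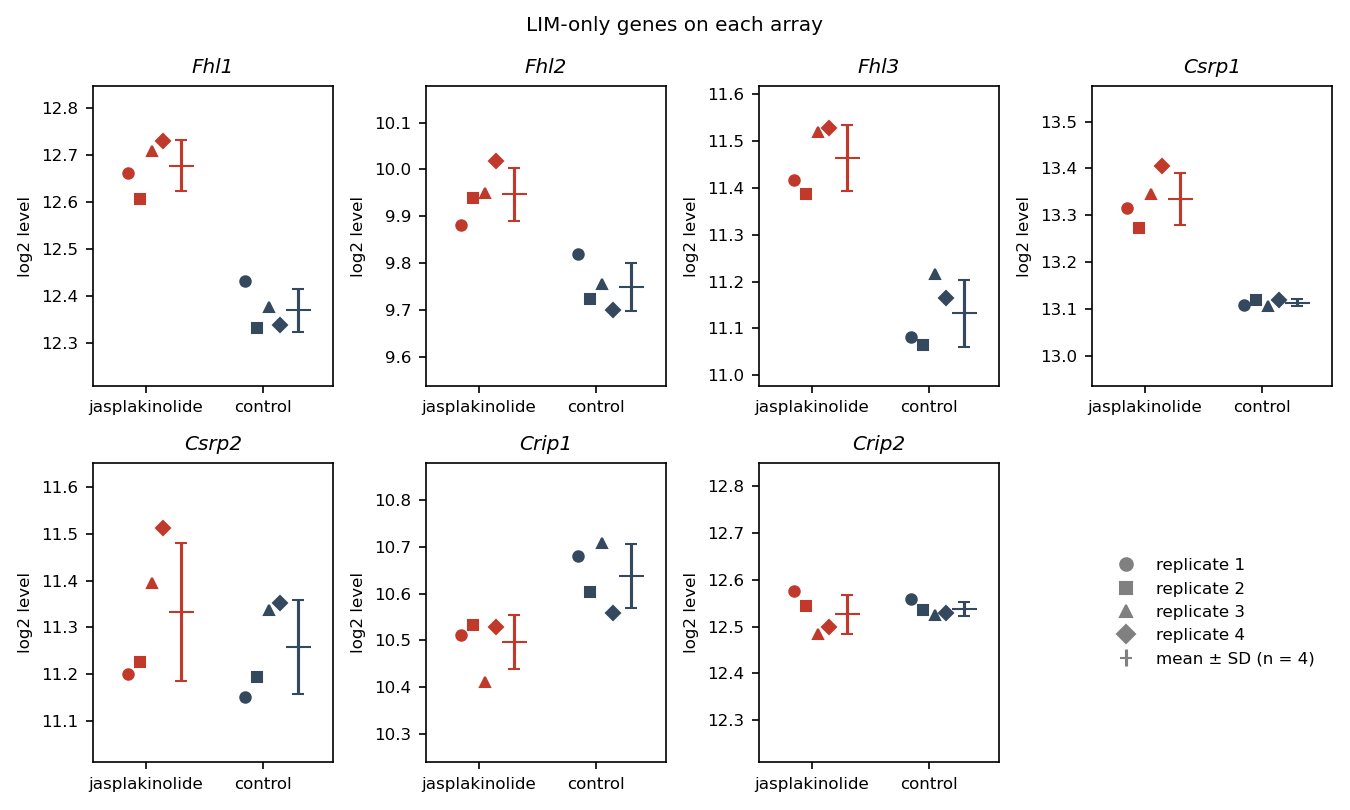
Log2 expression level (vertical axis, each panel spanning the same number of log2 units) of the 7 LIM-only genes on each array, with 4 jasplakinolide arrays (red, left) and 4 control arrays (dark blue, right); symbols mark the replicate number, and bars are the mean and SD (n = 4 each). The groups are separate for Fhl1, Fhl2, Fhl3, Csrp1 and, in the lower direction, Crip1, and overlap for Csrp2 and Crip2.

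Fhl1 encodes the FHL protein best known from skeletal muscle, and its mutation causes myopathies in humans. It measured 12.66, 12.61, 12.71 and 12.73 log2 on jasplakinolide arrays 1 to 4, and 12.43, 12.33, 12.38 and 12.34 log2 on control arrays 1 to 4. The groups were separated by 0.18 log2 units, and the highest jasplakinolide array was number 4. Fhl1 averaged 12.68 ± 0.05 log2 with jasplakinolide and 12.37 ± 0.05 log2 in control (SD, n = 4 each), a log2 difference of 0.31 ± 0.05 (SE; 95% interval 0.20 to 0.41; limma adjusted p = 0.0231). It ranked 128 of 19938 genes by signed difference, and it also passed with the replicate block (limma adjusted p = 0.0302). With the block and replicate number 2 left out it still passed (limma adjusted p = 0.0421), but not without number 1, 3 or 4 (0.127 to 0.216). In the fit without the block, Fhl1 kept its call without control 1 or control 2. It lost it without jasplakinolide 1, 2, 3 or 4 or without control 3 or 4 (limma adjusted p 0.0530 to 0.116), and without control 2 and jasplakinolide 4 together (limma adjusted p = 0.0741). Its difference stayed between 0.29 and 0.33 with any 1 array left out.

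Fhl3, a further FHL gene of muscle whose protein binds actin filaments, had the largest log2 difference of the 7. It measured 11.42, 11.39, 11.52 and 11.53 log2 on jasplakinolide arrays 1 to 4, and 11.08, 11.06, 11.22 and 11.17 log2 on control arrays 1 to 4. In both groups arrays 3 and 4 were the higher ones, and the groups stayed 0.17 log2 units apart. Fhl3 averaged 11.46 ± 0.07 log2 with jasplakinolide and 11.13 ± 0.07 log2 in control (SD, n = 4 each), a log2 difference of 0.33 ± 0.05 (SE; 95% interval 0.21 to 0.45; limma adjusted p = 0.0330, and 0.0181 with the replicate block). It ranked 110 of 19938 genes by signed difference. Its difference lay between 0.31 and 0.36 with any 1 array left out, but none of these 8 fits kept the call (limma adjusted p 0.0588 to 0.116), nor did the fit without control 2 and jasplakinolide 4 together (limma adjusted p = 0.0991). After centring each array on its median, Fhl3 (limma adjusted p = 0.0508) and Fhl1 (limma adjusted p = 0.0522) both missed the threshold.

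Fhl2 encodes an adaptor of heart and smooth muscle that binds SRF as well as integrins and beta-catenin. It measured 9.88, 9.94, 9.95 and 10.02 log2 on jasplakinolide arrays 1 to 4, and 9.82, 9.72, 9.75 and 9.70 log2 on control arrays 1 to 4. The groups did not overlap, but jasplakinolide 1 and control 1 were only 0.06 log2 units apart. Fhl2 averaged 9.95 ± 0.06 log2 with jasplakinolide and 9.75 ± 0.05 log2 in control (SD, n = 4 each). The log2 difference of 0.20 ± 0.05 (SE; 95% interval 0.09 to 0.31) did not pass over all genes (limma adjusted p = 0.132), though it passed among the brighter 50% of genes (0.0416) and with array weights (0.0466).

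SRF binds the CArG box, a short AT-rich core between CC and GG, and promoter windows were searched for it because Fhl2 is a known SRF target. The windows run from 250 bases before to 50 bases after an annotated transcript start (RefSeq, GRCm38.p6). Of the 7 genes 6 had at least 1 window, 10 windows in all, and Csrp2 had none in the table. A CArG box was found on either strand in 1 of 2 windows of Fhl1 and in both windows of Fhl2. Across 27025 genes with a window, 1.81% had a CArG box in any of theirs, and 1.63% of all 32851 windows held one. Fhl2 was the reason for the search, so its matches are not an independent result. The windows with a match are shown first, with the CArG box in capitals, followed by those of Fhl3, which rose without such a match in its window, and of Crip1, which had its groups apart in the lower direction.
Fhl1, chrX:56779433-56779732, plus strand: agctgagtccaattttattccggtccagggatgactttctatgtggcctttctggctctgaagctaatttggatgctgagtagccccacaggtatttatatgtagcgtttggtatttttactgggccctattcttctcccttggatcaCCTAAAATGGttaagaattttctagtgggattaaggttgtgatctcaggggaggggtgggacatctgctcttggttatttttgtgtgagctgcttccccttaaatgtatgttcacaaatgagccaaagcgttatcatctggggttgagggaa
Fhl2, window 1, chr1:43163912-43164211, minus strand: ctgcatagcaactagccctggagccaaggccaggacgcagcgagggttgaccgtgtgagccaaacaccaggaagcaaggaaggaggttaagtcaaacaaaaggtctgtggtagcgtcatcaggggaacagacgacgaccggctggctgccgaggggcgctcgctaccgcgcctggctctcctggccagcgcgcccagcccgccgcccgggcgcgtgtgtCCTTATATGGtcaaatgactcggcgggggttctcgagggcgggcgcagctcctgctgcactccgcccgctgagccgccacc
Fhl2, window 2, chr1:43196712-43197011, minus strand: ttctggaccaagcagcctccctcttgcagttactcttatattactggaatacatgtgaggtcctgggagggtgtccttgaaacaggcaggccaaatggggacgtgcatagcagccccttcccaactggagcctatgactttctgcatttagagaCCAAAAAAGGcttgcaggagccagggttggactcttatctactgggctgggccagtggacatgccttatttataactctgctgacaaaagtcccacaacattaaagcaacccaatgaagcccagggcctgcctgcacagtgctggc
Fhl3, chr4:124700449-124700748, plus strand: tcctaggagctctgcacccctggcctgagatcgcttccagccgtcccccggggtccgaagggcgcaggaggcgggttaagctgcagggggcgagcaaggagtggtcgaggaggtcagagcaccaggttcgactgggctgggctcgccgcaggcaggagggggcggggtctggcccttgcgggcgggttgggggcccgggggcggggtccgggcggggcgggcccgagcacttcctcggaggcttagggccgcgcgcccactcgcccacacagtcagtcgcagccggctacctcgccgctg
Crip1, chr12:113151762-113152061, plus strand: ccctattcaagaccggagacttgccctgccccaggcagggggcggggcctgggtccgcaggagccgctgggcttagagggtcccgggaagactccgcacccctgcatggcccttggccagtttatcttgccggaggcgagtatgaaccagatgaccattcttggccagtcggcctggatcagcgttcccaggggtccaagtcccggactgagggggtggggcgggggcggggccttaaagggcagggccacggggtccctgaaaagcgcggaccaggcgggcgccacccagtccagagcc
The match in Fhl1, CCTAAAATGG, begins 102 bases before the start site. Those in Fhl2, CCTTATATGG and CCAAAAAAGG, begin 31 bases before the start of window 1 and 96 bases before that of window 2. The windows of Fhl3, Csrp1, Crip1 and Crip2 held no CArG box, which says only that its letters do not occur there. Neither GGAATG, the core of sites for TEAD factors, nor TGANTCA, the AP-1 site, occurred in any of the 10 windows on either strand. Of all genes with a window 16.6% and 8.97% had them, so none among 6 genes is not far from those shares. GATAA, the core of sites for GATA factors, occurred in windows of Fhl1, Fhl2 and Crip1, and in 28.4% of all genes with a window. None of these motifs overlapped a CArG box in these windows. A match is a stretch of letters and not a measured binding site, and the arrays do not show which start site was used.

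Csrp1 and Csrp2 encode cysteine-rich proteins that bind alpha-actinin and zyxin. Csrp1 measured 13.31, 13.27, 13.35 and 13.41 log2 on jasplakinolide arrays 1 to 4, and 13.11, 13.12, 13.11 and 13.12 log2 on control arrays 1 to 4. The control arrays lay close together, and the jasplakinolide arrays were all higher. Csrp1 averaged 13.33 ± 0.06 log2 with jasplakinolide and 13.11 ± 0.01 log2 in control (SD, n = 4 each), a log2 difference of 0.22 ± 0.04 (SE; 95% interval 0.12 to 0.32). It did not pass (limma adjusted p = 0.0591, and 0.0553 with the replicate block). It passed with filters to the brighter 75% (0.0342) or 50% of genes (0.0156), a second quantile normalization (0.0355), cyclic loess (0.0391), array weights (0.0266) and an intensity trend with a robust prior (9.559e-04), and not with any 1 array left out (limma adjusted p 0.0932 to 0.208).

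Csrp2 encodes the family member known as a marker of arterial smooth muscle. It measured 11.20, 11.23, 11.39 and 11.51 log2 on jasplakinolide arrays 1 to 4, and 11.15, 11.19, 11.34 and 11.35 log2 on control arrays 1 to 4. The groups overlapped, and in both of them arrays 3 and 4 were above arrays 1 and 2. Csrp2 averaged 11.33 ± 0.15 log2 with jasplakinolide and 11.26 ± 0.10 log2 in control (SD, n = 4 each), a log2 difference of 0.07 ± 0.08 (SE; 95% interval -0.11 to 0.26) that did not pass (limma adjusted p = 0.902). With the replicate block the SE was 0.04 and the gene still did not pass (limma adjusted p = 0.439). The difference was -0.0065 without control 2 and jasplakinolide 4, and -0.030 with array weights.

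Crip1 and Crip2 encode small proteins with a single or a repeated LIM domain. Crip1 is best known from intestine and immune cells and Crip2 from heart and vessels. They lie close together on chromosome 12, with 1 annotated gene between them in GRCm38.p6. Crip1 measured 10.51, 10.53, 10.41 and 10.53 log2 on jasplakinolide arrays 1 to 4, and 10.68, 10.60, 10.71 and 10.56 log2 on control arrays 1 to 4. All jasplakinolide arrays were below all control arrays, with jasplakinolide 3 the lowest. Crip1 averaged 10.50 ± 0.06 log2 with jasplakinolide and 10.64 ± 0.07 log2 in control (SD, n = 4 each), a log2 difference of -0.14 ± 0.05 (SE; 95% interval -0.26 to -0.03) that did not pass (limma adjusted p = 0.391, and 0.287 with the replicate block). Crip2 measured 12.58, 12.54, 12.48 and 12.50 log2 on jasplakinolide arrays 1 to 4, and 12.56, 12.54, 12.53 and 12.53 log2 on control arrays 1 to 4. These arrays were mixed, with jasplakinolide holding both the highest and the lowest value. The log2 difference of Crip2 was -0.01 ± 0.04 (SE; 95% interval -0.10 to 0.08; limma adjusted p = 0.972), and its sign turned without jasplakinolide 3 (0.0028) and with array weights (0.0078).

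**Figure D2:**
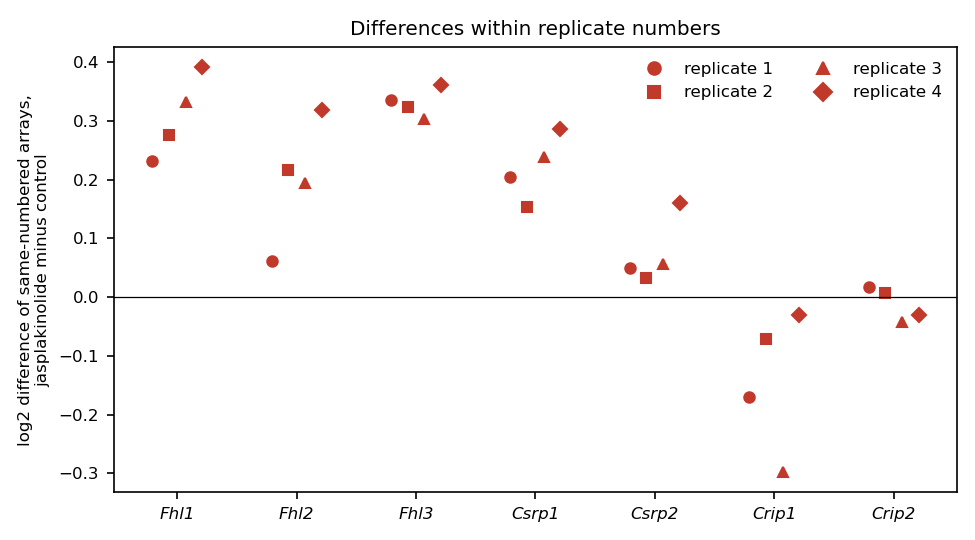
Log2 difference between same-numbered arrays (jasplakinolide minus control, vertical axis) for each LIM-only gene, with 1 symbol per replicate number and a line at no difference. Fhl1, Fhl2, Fhl3, Csrp1 and Csrp2 were above the line in all 4 pairs, Crip1 was below it in all 4, and Crip2 lay on both sides.

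Compared by replicate number, the 7 genes varied to different degrees. Fhl3 had differences of 0.34, 0.32, 0.30 and 0.36 log2 units in pairs 1 to 4, the narrowest relative to its size. Those of Fhl1 were 0.23, 0.28, 0.33 and 0.39, and those of Csrp1 were 0.21, 0.15, 0.24 and 0.29. Pair 4 held the highest value for Fhl1, Fhl2, Fhl3, Csrp1 and Csrp2, and its jasplakinolide array is the one that lay farthest out on the first principal component. Its part in these values was not tested beyond the fits without that array. Fhl2 ran between 0.06 in pair 1 and 0.32 in pair 4, and Csrp2 between 0.03 in pair 2 and 0.16 in pair 4. Crip1 was lower in all 4 pairs, by -0.30 log2 units in pair 3 and -0.03 in pair 4.

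Whether members of a family responded unequally was tested for 5 pairs of genes with an exact two-sided permutation test of the within-array difference over the 70 splits of the arrays, whose smallest possible p is 0.0286. The response of Fhl1 exceeded that of Fhl2 by 0.11 log2 units (exact p = 0.0286, adjusted over the 5 pairs 0.0714). The response of Fhl2 minus that of Fhl3 was -0.13 (exact p = 0.0857, adjusted 0.143), and that of Fhl1 minus that of Fhl3 was -0.02 (exact p = 0.686, adjusted 0.686). For Csrp1 minus Csrp2 it was 0.15 (exact p = 0.143, adjusted 0.179), and for Crip1 minus Crip2 -0.13 (exact p = 0.0286, adjusted 0.0714). None of the 5 passed after adjustment. At least 3 of the 5 would have had to reach the smallest possible p for any to pass, since 1 or 2 at that p give an adjusted p of 0.143 or 0.0714, so the adjusted values do not show that the members of a family responded alike. In 4 of the 5 comparisons, all but Fhl1 against Fhl3, all 4 same-numbered pairs had the same sign.

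**Figure D3:**
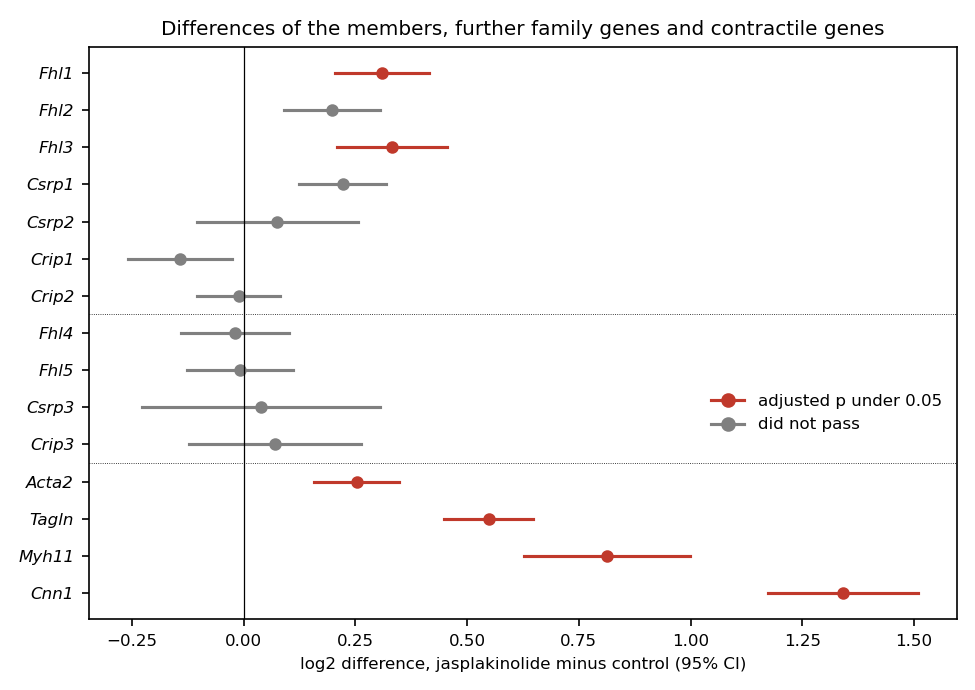
Log2 difference (jasplakinolide minus control, horizontal axis) with limma's 95% confidence interval for the 7 LIM-only genes (top), the 4 further genes of their families (middle) and 4 contractile genes (bottom); red marks an adjusted p under 0.05. Fhl1 and Fhl3 lie near Acta2 and below Tagln, Myh11 and Cnn1.

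The other genes of the families, Fhl4, Fhl5, Csrp3 and Crip3, are known mainly from testis (Fhl4, Fhl5), striated muscle (Csrp3) and thymus (Crip3). None of the 4 passed, and none had an unadjusted p under 0.05 (limma). Fhl5 averaged 5.46 log2 with jasplakinolide and 5.47 log2 in control, a log2 difference of -0.01 ± 0.05 (SE). Fhl4 differed by -0.02 ± 0.05, Csrp3 by 0.04 ± 0.12 and Crip3 by 0.07 ± 0.09 on the log2 scale (SE). The groups overlapped for each of them. Csrp3 ran between 7.27 and 7.64 log2 with jasplakinolide and between 7.11 and 7.61 log2 in control, with jasplakinolide 4 and control 2 the highest of their groups.

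Of 36 measured genes for other LIM proteins linked to actin (of 37 listed), 1 rose, none fell and 35 did not pass (limma, adjusted over all genes), and 7 had an unadjusted p under 0.05 in the higher and 1 in the lower direction. Of all 19938 genes, 830 and 939 did. The list's median log2 difference was 0.01, as over all genes, with 18 members above and 18 below 0. On 7 of the 36 every jasplakinolide array lay above every control array, and on 1 every one lay below. Among all genes 3.62% and 3.29% had such a separation. The gene that rose was Lims2, which encodes PINCH-2, an adaptor of the integrin-linked kinase complex. Lims2 averaged 10.58 ± 0.08 log2 with jasplakinolide and 9.79 ± 0.12 log2 in control (SD, n = 4 each), a log2 difference of 0.79 ± 0.07 (SE; limma adjusted p = 0.00133), and it passed whichever 1 array was left out (limma adjusted p 0.00270 to 0.00907). With the replicate block it passed over all 4 pairs (limma adjusted p = 0.0133), but not without replicate number 3 (0.137) or 4 (0.0535). Its paralogue Lims1, named here after its value was seen, differed by -0.06 ± 0.05 (SE; limma adjusted p = 0.837). Also chosen after their values were seen, Pdlim7, a PDZ and LIM protein of actin filaments, differed by 0.28 ± 0.05 (SE; limma adjusted p = 0.0564) and Ablim1, an actin-binding LIM protein, by -0.29 ± 0.06 (SE; limma adjusted p = 0.0660). Zyx, a binding partner of the CSRP proteins, differed by -0.0025 ± 0.05 (SE; limma adjusted p = 0.996). Of 4 nuclear LIM-only genes of the LMO family, which share the name but act on transcription, none passed, 1 had an unadjusted p under 0.05 in the higher and 2 in the lower direction (limma), and the largest log2 differences were those of Lmo2 (-0.24 ± 0.10, SE) and Lmo4 (0.17 ± 0.05, SE).

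**Figure D4:**
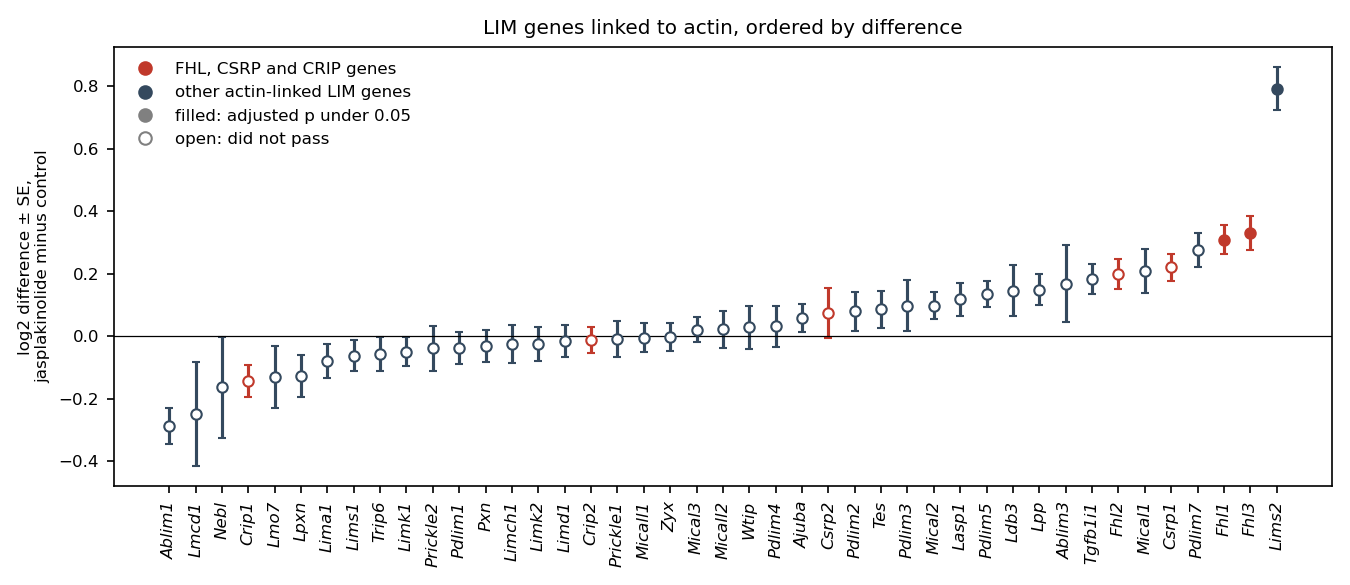
Log2 difference (jasplakinolide minus control, vertical axis) with its SE for the 7 LIM-only genes (red) and 36 other actin-linked LIM genes (dark blue), ordered from lowest to highest; filled symbols passed the test. Lims2 (0.79), Fhl3 (0.33) and Fhl1 (0.31) are the 3 that passed, and they are the 3 highest.

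Of 14 measured partners and regulators of the LIM-only proteins (of 16 listed), none passed and 1 had an unadjusted p under 0.05, higher (limma). Their median log2 difference was 0.04. The largest differences were those of Myocd, the SRF coactivator myocardin (0.13 ± 0.09, SE), and of Itgb1, the integrin beta chain to which FHL proteins have been reported to bind (0.10 ± 0.04, SE). Srf differed by 0.05 ± 0.05, Mrtfa by 0.01 ± 0.04 and Mrtfb by -0.06 ± 0.07 on the log2 scale (SE).

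Beside the LIM-only genes, 12 of 19 contractile markers rose (limma) and the other 7 did not pass, with a median log2 difference of 0.68. Of all genes 0.436% rose by the same rule, and 0.813% with the replicate block. The list was chosen with earlier results of these data known, so its counts are a description. With any 1 array left out 10 to 11 rose. With the replicate block 13 rose, and 8, 12, 0 and 7 did with the block and replicate number 1, 2, 3 or 4 left out (16 had an unadjusted p under 0.05 where it was 0; limma). The largest rises in this list were those of Kcnmb1 (2.0 ± 0.13), Cnn1 (1.34 ± 0.07), Synpo2 (0.98 ± 0.15) and Actg2 (0.93 ± 0.10; log2 difference ± SE). Acta2, smooth muscle actin, rose by 0.25 ± 0.04 on the log2 scale, close to the values of Fhl1 and Fhl3. Tagln (0.55 ± 0.04) and Myh11 (0.81 ± 0.08) had larger log2 differences (SE), and whether contractile genes responded differently from the LIM-only genes was not tested. Acta2 lost its call without any 1 of the 8 arrays (limma adjusted p 0.0593 to 0.128). Averaged over the 19 genes, the log2 level ran between 10.68 and 10.86 on jasplakinolide arrays and between 10.08 and 10.18 on control arrays.

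Markers of other cells were measured as well. Of 12 endothelial markers 1 fell, Robo4 (log2 difference -0.41 ± 0.06, SE; limma adjusted p = 0.0170), and 11 did not pass. Without adjustment, 6 of the 12 had a p under 0.05 in the lower and none in the higher direction (limma), against 939 and 830 of all 19938 genes. The mean was lower for 10 of the 12, against 8698 of all 19938 genes. On 6 of the 12 every jasplakinolide array lay below every control array, against 3.29% of all genes. By the adjusted test 0.336% of all genes fell, and 1.08% with the replicate block (limma). With the replicate block 3 of the 12 fell, Robo4 (limma adjusted p = 0.0205), and, named after their values were seen, Kdr (log2 difference -0.45; limma adjusted p = 0.0424) and Tek (-0.31; 0.0354). Without the block Robo4 lost its call without jasplakinolide 1 or 2 or control 3 or 4 (limma adjusted p 0.0580 to 0.0729). Over the 12 markers, the average log2 level ran between 10.97 and 11.11 on jasplakinolide arrays and between 11.20 and 11.23 on control arrays, so the groups did not overlap. Named after their values were seen, Emcn averaged 13.4 log2 in both groups, Cdh5 13.1 with jasplakinolide and 13.2 in control, and Pecam1 12.3 and 12.5. The lowest of the 12 was Vwf, at 8.1 in both groups. All probe sets ranged between 2.29 and 14.2, so several endothelial markers gave a high signal in both groups. None of 9 measured fibroblast markers passed (2 had an unadjusted p under 0.05, lower; limma), with Dcn at -0.54 ± 0.12 and Dpt at -0.46 ± 0.11. The average level of the 9 was 8.56 to 8.68 with jasplakinolide and 8.65 to 8.81 in control, but single markers differed widely. Named after their values were seen, Cd34 averaged 12.93 log2 with jasplakinolide and 13.15 in control, and Col1a1 12.10 and 12.04. Dcn averaged 12.25 and 12.79, and Lum, the lowest, 4.66 and 4.72. With the replicate block Dcn fell (limma adjusted p = 0.0134). None of 10 macrophage markers passed (2 with an unadjusted p under 0.05 higher, 1 lower; limma), with averages of 8.12 to 8.21 with jasplakinolide and 8.09 to 8.22 in control. Cd68 (-0.24 ± 0.07) and Lyz2 (0.17 ± 0.05) had the largest log2 differences of these (SE), and with the replicate block Cd68 fell (limma adjusted p = 0.0424). None of 10 markers of skeletal and cardiac muscle passed, none had an unadjusted p under 0.05 (limma), and the largest log2 differences were those of Myh6 (0.09 ± 0.08) and Nkx2-5 (0.08 ± 0.13; SE). The log2 scale has no 0 level, so no marker can be called absent. The part of endothelial or fibroblast RNA in the values of the LIM-only genes was not tested.

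The genes whose levels followed Fhl1 most closely over the 8 arrays were Efhd1, a calcium-binding protein (Pearson's r = 0.995), Nrp2, a neuropilin (r = 0.995), and Tubb6, a beta-tubulin (r = 0.994). Those closest to Fhl3 were Mcam, a cell adhesion molecule of mural and endothelial cells (r = 0.993), Tpm2, a tropomyosin (r = 0.992), and Hspb6, a small heat shock protein of muscle (r = 0.992). These values are descriptions. The 8 arrays belong to 2 groups, so the group difference enters each r, and the genes were picked as the highest among all genes. Of these 6 genes 5 rose, with log2 differences between 0.31 for Mcam and 1.47 for Efhd1, and Tubb6 did not pass (0.20; limma adjusted p = 0.0870). With 1 array left out, Efhd1, Nrp2 and Tpm2 kept their calls in all 8 fits without the block, though with the block all 3 lost them without replicate number 3 (limma adjusted p 0.137, 0.137 and 0.108) and Nrp2 also without number 4 (0.0698). Also without the block, Hspb6 lost its call without jasplakinolide 3 (limma adjusted p = 0.0616) or control 4 (0.0598), and Mcam lost it in all 8 (limma adjusted p 0.0554 to 0.120).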

How the data were processed

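Total RNA was hybridised to 8 Affymetrix arrays, 4 with jasplakinolide and 4 controls, grouped by their titles. The deposited values are log2 levels, 1 per probe set. Per the submitters' processing notes, the authors made them with RMA in Affymetrix Expression Console. Program versions and the genome build were not given in the sources used here. The 35556 probe sets ranged between 2.29 and 14.2, and 4 arrays per group limit the precision. The platform annotation gave 1 symbol to 21789 probe sets, several to 1621 and none to 12146. Only those with 1 symbol were used, with the brightest probe set of each gene, and 0 symbols changed against the reference gene table.

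The test was limma 3.58.1 (R 4.3.3; lmFit, eBayes, two-sided, Benjamini-Hochberg over 19938 genes, threshold 0.05), with 6 residual and 3.43 prior degrees of freedom. The code was run on simulated data with independent noise on each array. Such data lack the structure shared between the real arrays, so this run does not give the error rate here. The groups share replicate numbers. After subtracting group means, same-numbered arrays correlated across genes at 0.24 to 0.56 in the 4 pairs, each over the 0.1 set as the rule. The numbers were therefore treated as possible pairs, and the block was fitted as an alternative. Arrays of different numbers correlated at -0.62 to 0.52, and 6 of 8 arrays correlated best with their own number, so the pairing is uncertain, and it rests on the data and not on the labels. The unblocked fit was the main one, because the labels do not say that the numbers mark a shared culture.

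The members and the gene lists were chosen with earlier results of these data known. The text names all 7 members, the further family genes and, per list, up to 4 genes past the test by size of difference (2 where none passed). It always names Acta2, Tagln, Cnn1, Myh11, Srf, Myocd, Mrtfa and Mrtfb, and adds the 3 genes most alike to each member past the test. Listed genes without a value are not analysed here. Promoter windows came from RefSeq, GRCm38.p6. Protein sequences were not used here. Plots were made in matplotlib 3.10.9 (Python 3.11.15). Alternatives were the replicate block, filters on dim genes, further normalizations, other variance models, other handling of probe sets and leaving out arrays.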

Additional observations from a re-analysis of the deposited data

How the results depend on the processing

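The precision of the array values is limited by 4 arrays per group, and differences of the size seen for the LIM-only genes sat close to the threshold. The count of all genes past the test, 154, was 377 with the replicate block, 296 among the brighter 50% of genes, 277 after a second quantile normalization, 299 after cyclic loess, 457 with array weights and 358 with a robust, intensity-dependent prior. It lay between 43 and 150 with 1 array left out, and was 38, 458, 0 and 13 with the replicate block and replicate number 1, 2, 3 or 4 left out (1977 at an unadjusted p under 0.05 where it was 0; limma). The count of LIM-only genes past the test, 2, was 4 among the brighter 50% of genes and with array weights, 0 after median centring and without control 2 and jasplakinolide 4 together (5 at an unadjusted p under 0.05 in both; limma), and 0 to 1 with 1 array left out (4 to 5 unadjusted). With the replicate block and 1 replicate number left out it was 0 to 2. Of all genes, 1454 had an unadjusted p under 0.05 after median centring and 2171 without control 2 and jasplakinolide 4 together (limma). With 1 array left out, 1445 to 2581 of all genes did. The count of other actin-linked LIM genes, 1, was 3 among the brighter 75% or 50% of genes and with array weights, 2 after a second quantile normalization or cyclic loess and 5 with a robust, intensity-dependent prior. It was 1 whichever array was left out, and 0 to 1 with the replicate block and 1 replicate number left out. The cause of these shifts was not tested, apart from the fewer arrays or genes that some settings have by construction.

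The alternatives for the contractile count, Lims2, Robo4 and the genes most alike to Fhl1 and Fhl3 were added after seeing the data. The directions of Fhl1, Fhl2, Fhl3, Csrp1 and Crip1 held in all 23 alternatives. The log2 difference of Csrp2 turned to -0.030 with array weights and -0.0065 without control 2 and jasplakinolide 4, and that of Crip2 to 0.0078 with array weights and between -0.028 and 0.0028 with 1 array left out (above 0 without jasplakinolide 3), and the difference of response between Fhl1 and Fhl3, which ran between -0.048 and 0.015 with 1 array left out, was above 0 without control 1. With the replicate as pairs, the exact sign-flip test of the 5 paralogue comparisons had adjusted p between 0.156 and 0.625, but with 4 pairs it cannot give a p under 0.125. With 1 array left out, the adjusted p of all 5 comparisons stayed between 0.0952 and 0.886. The replicate block changed no call of a LIM-only gene. Among the listed genes it added Itga8 (log2 difference 0.70; limma adjusted p = 0.0577 without and 0.0134 with the block, named after its value was seen), Kdr, Tek, Dcn and Cd68.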
